A study of Mus musculus with 6 samples.

Results

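The genes described here encode the enzymes and regulators with which a cell makes sterols and fatty acids. They were taken by name, as the rows of the deposited gene table whose symbol was one of 28 listed, and each symbol matched 1 row of the 52636. All 28 passed the filter on low counts, which left 16869 genes. The list holds 7 enzymes that lead from acetyl-CoA to farnesyl pyrophosphate and 11 that make squalene and turn it into cholesterol. It also holds 4 genes for regulation and sterol transport and 6 enzymes that make fatty acids. RNA came from radial glia, the stem cells of the developing cortex, which were sorted from dissected forebrains of E12.5 mouse embryos by their surface Prominin1. The mice had a mixed background of CD1, 129/ola and C57BL6. All embryos, controls included, were Smad1wt/fl and Smad5wt/fl, with 1 floxed copy of each of these genes, whose proteins carry bone morphogenetic protein signals to the nucleus. The libraries labelled SmadNes came from embryos with Nestin:Cre+/0, in which the Nestin promoter drives the recombinase in neural progenitors. The control libraries came from littermates without the recombinase (Nestin:Cre0/0). Each group had 3 pools of cells, named SF3, SF4 and SF5_6 in both and chosen for the best RNA integrity. The labels do not say how many embryos made up a pool. At most 1 copy of each Smad gene could be lost in SmadNes cells, so the groups compare a partial loss with none.

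Cholesterol is built from acetyl-CoA through mevalonate, isoprenoid pyrophosphates and squalene, and fatty acids are built from the same acetyl-CoA through malonyl-CoA. Both routes are switched on by the sterol regulatory element binding proteins SREBP1 and SREBP2, which are held in the endoplasmic reticulum by Insig proteins while sterols are plentiful. Dividing neural progenitors depend on making their own cholesterol, since little of it crosses into the brain, and they need fatty acids for new membrane.

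The libraries held between 32997423 and 40744672 expected counts. The targeted genes went against the plain reading of the labels, since both were higher in the libraries labelled SmadNes, in all 3 pools. In CPM, counts scaled to a common library size, control Smad5 stood at 292 ± 6.74 and SmadNes Smad5 at 391 ± 18.8 (SD, 3 libraries each), with edgeR's adjusted p at 0.965, or 0.00757 with the pool name as a block. Smad1 had 75.6 ± 2.58 and 88.5 ± 3.83 CPM (adjusted p 1, or 0.257 with the block). Counts of all exons together do not check the deletion, so directions between genotypes rest on the labels, and SmadNes below means the libraries so labelled. All 9 radial glia markers were detected, among them the sort marker Prom1 at 106 to 132 CPM, but transcripts of neurons were abundant too, with Tubb3 at 814 to 951 CPM. In such mixed cells, fewer cells of a type and less RNA per cell cannot be told apart.

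Sterol and fatty acid genes were expressed in every library, with 259 to 65864 counts per gene. Together they took 0.536% to 0.566% of all counts. Compared per exon length, in TPM (length-scaled transcript shares), Scd2 stood far above the rest at 1150 ± 64.6 TPM (SD over the 6 libraries), which ranked it 61st of 52489 genes with a known length and made up 28.7% of the summed TPM of the 28. Scd2 encodes a stearoyl-CoA desaturase, which puts a double bond into saturated fatty acids. Acly, which splits citrate to supply cytosolic acetyl-CoA, followed at 462 ± 38.5 TPM. Hmgcs1, the synthase of HMG-CoA at the entry to the mevalonate route, stood at 353 ± 34.6 TPM. Acat2, a thiolase that joins acetyl-CoA units, and Fasn, the fatty acid synthase, followed at 286 ± 12.1 and 259 ± 9.01 TPM. Ranges over the libraries did not overlap between any of these 5 genes, so their order held in every library. Reads of Acat2 that also fit a near-identical gene copy were divided by estimation, which makes its level less certain.

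Below these came Srebf2, the gene of SREBP2, at 184 ± 9.17 TPM. Next stood a close group of Cyp51, Idi1, Insig1, Fdft1 and Sqle, with means from 108 to 130 TPM and ranges that overlapped from each gene to the next. At the lower end were Tm7sf2 (13.2 ± 1.15 TPM), Ebp (13.5 ± 0.706 TPM) and Scd1 (17.6 ± 6.26 TPM). Tm7sf2 encodes a sterol C14 reductase and Ebp a sterol isomerase that acts later in the route. Scd2 and Tm7sf2 differed 87.1-fold in level. Lengths counted every annotated exon of a gene, so the TPM of a gene with long alternative exons is low.

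**Figure D1:**
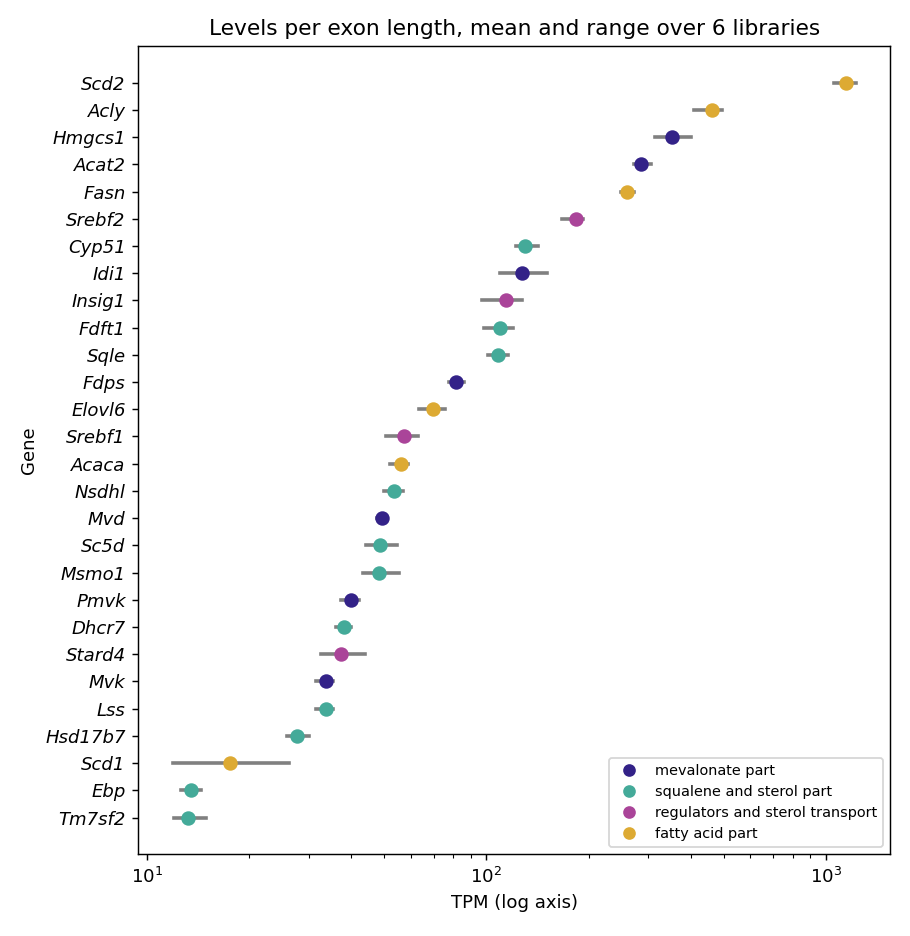
Mean level of each gene in TPM (log axis) as a coloured point, with a grey line from the lowest to the highest of the 6 libraries; colours mark the step of the pathway. Scd2 lies far to the right at 1150 TPM, Tm7sf2 and Ebp at the left near 13 TPM, and Scd1 has the widest line.

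The start sites of these genes share letters that sit in many promoters of sterol genes. RefSeq promoter windows of GRCm38.p6, from 250 bases before to 50 after a start, were found for 22 of the 28 symbols. Missing were Fdps, Fdft1, Sqle, Stard4, Scd1 and Scd2. CCAAT, the box bound by nuclear factor Y, stood on either strand in windows of 19 of the 22 genes, against 41.1% of all 27025 genes with a window. GGGCGG, the box bound by Sp1, stood in 18 of 22, against 38.2% of all genes, and CACGTG, an E-box, in 4 of 22, against 8.09%. TCACNCCAC, a strict form of the sterol regulatory element, stood only in Hmgcs1 among the 22, against 1.44% of all genes. Many working elements differ from these letters. A gene with several windows counted if any held the match. The 27025 genes were not filtered by expression, while all 22 passed the filter on low counts. The shares thus do not compare genes of like expression. The 4 windows below are shown because their genes differed between pools in opposite directions, Hmgcs1 and Idi1 one way and Insig1 and Acly the other. They lie at chr13:119690101-119690400 (plus strand), chr13:8885356-8885655 (plus), chr5:28071162-28071461 (plus) and chr11:100527951-100528250 (minus), and are written along the gene's strand. Capitals mark the motifs searched.
Hmgcs1: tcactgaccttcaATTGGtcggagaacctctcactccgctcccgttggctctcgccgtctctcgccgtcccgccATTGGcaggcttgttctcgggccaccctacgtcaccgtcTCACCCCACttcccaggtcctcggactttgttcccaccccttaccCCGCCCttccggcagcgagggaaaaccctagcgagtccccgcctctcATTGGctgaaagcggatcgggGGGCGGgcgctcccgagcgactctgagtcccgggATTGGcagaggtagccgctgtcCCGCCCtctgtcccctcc
Idi1: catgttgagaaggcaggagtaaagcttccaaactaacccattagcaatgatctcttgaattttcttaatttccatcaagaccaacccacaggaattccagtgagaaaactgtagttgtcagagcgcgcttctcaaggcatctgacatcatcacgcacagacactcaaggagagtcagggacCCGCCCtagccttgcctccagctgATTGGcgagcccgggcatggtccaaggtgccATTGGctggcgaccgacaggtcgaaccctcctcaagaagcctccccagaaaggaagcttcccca
Insig1: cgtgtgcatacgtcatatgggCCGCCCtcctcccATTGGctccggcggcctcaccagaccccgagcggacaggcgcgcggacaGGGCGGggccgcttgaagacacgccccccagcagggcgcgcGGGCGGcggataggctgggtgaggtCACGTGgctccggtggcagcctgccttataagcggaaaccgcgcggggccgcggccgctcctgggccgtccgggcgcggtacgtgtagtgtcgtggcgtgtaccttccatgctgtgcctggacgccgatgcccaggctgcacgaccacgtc
Acly: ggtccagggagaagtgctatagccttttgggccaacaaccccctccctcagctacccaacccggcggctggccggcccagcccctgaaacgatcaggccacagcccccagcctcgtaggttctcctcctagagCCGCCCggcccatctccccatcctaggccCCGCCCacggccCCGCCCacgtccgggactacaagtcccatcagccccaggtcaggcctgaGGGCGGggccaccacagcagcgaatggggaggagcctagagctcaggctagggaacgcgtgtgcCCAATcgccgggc

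The Hmgcs1 window holds its sterol element, read TCACCCCAC, with its first base at -137 from the start, 4 CCAAT boxes and 3 GGGCGG boxes. Idi1 has 2 CCAAT boxes and 1 GGGCGG box close to its start. Insig1 has 1 CCAAT box at -216, 3 GGGCGG boxes and the only CACGTG of the 4 windows. Acly has 4 GGGCGG boxes, and its 1 CCAAT lies after the start. All 4 genes thus carry both CCAAT and GGGCGG, whichever way their level differed between pools, and these matches are descriptions of letters, not of binding.

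The first comparison asks whether transcripts of sterol and fatty acid synthesis differ between the genotypes. None of the 28 genes was called, where a call means a Benjamini-Hochberg adjusted p below 0.05 over all genes in edgeR's quasi-likelihood test. The background was equally empty, with 0% of 16869 genes called. With the pool name as a block, still 0 of the 28 were called against 0.0237% of all genes. The lowest unadjusted p among the 28 was 0.219 without the block, and 1 gene, Idi1, lay below 0.05 with it, as did 1051 of all 16869 genes. DESeq2 and limma-voom also called 0 of the 28. The median log2 difference, libraries labelled SmadNes minus control, was 0.01 over the 28 genes and 0.00 over all genes tested. Within the pools SF3, SF4 and SF5_6 the medians of the 28 were -0.01, -0.02 and 0.07.

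Precision was high enough to bound these differences. In 27 of the 28 genes the 95% interval of the difference lay within 1.3-fold either way, from 0.784-fold at the lowest bound to 1.288-fold at the highest. Scd1 was the exception, with an interval from 0.565-fold to 1.787-fold. With the block, the bounds of the other 27 lay between -0.19 and 0.25 on the log2 scale and those of Scd1 at -0.21 and 0.20.

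**Figure D2:**
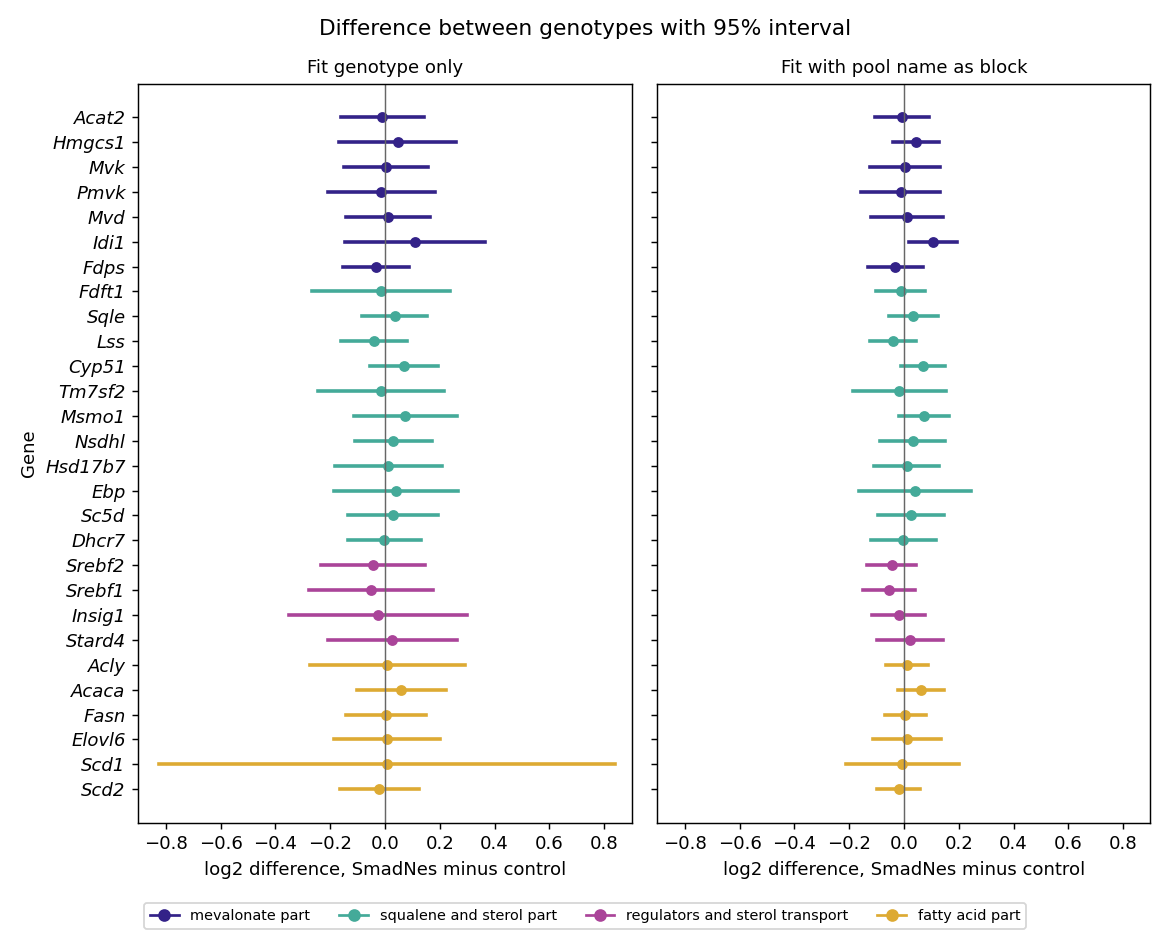
Log2 difference, SmadNes minus control, for each gene (points) with its 95% interval (lines), fitted with genotype alone (left) and with the pool name as a block (right); colours mark the step of the pathway. Points lie close to 0 in both panels, and the line of Scd1 is the widest on the left.

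Among the enzymes up to farnesyl pyrophosphate, Hmgcs1 stood at 386, 397 and 437 CPM in control SF3, SF4 and SF5_6 and at 378, 421 and 460 CPM in the matching libraries labelled SmadNes. The groups overlapped, and the log2 difference was 0.05 (SE 0.088). Idi1, the isomerase of isopentenyl pyrophosphate, stood at 99.2, 111.7 and 117.0 CPM in controls and 103.2, 118.9 and 131.9 CPM in SmadNes. It was the higher library of each pair in all 3 pools, but the groups overlapped. Its log2 difference was 0.11 (SE 0.105), and edgeR's adjusted p was 1 without the block and 0.711 with it. The kinases Mvk and Pmvk and the decarboxylase Mvd, which turn mevalonate into isopentenyl pyrophosphate, had log2 differences between -0.01 and 0.01, with SE of 0.063 to 0.081. Mvk stood at 23.0 ± 0.789 CPM in controls and 23.1 ± 0.755 in SmadNes (SD, n = 3), Pmvk at 17.6 ± 1.19 and 17.4 ± 0.764, and Mvd at 23.3 ± 0.723 and 23.4 ± 0.93. Fdps, the synthase of farnesyl pyrophosphate, stood at 88.1 ± 4.25 and 86.2 ± 1.33 CPM, and Acat2 at 186.4 ± 13.4 and 185.2 ± 2.57 CPM.

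In the squalene and sterol part, control Sqle, the squalene epoxidase that limits the later route, had 151.4 ± 1.16 CPM and SmadNes Sqle 155.1 ± 6.92 CPM (SD, 3 libraries each). Cyp51, which removes a methyl group from lanosterol, stood at 138.3, 146.0 and 144.1 CPM in control SF3, SF4 and SF5_6 and at 143.0, 150.7 and 156.1 CPM in SmadNes. It was higher in SmadNes in each pool, though the groups overlapped. The oxidase Msmo1, which acts on the next methyl groups, was also higher in each pool, at 68.5, 74.9 and 77.7 against 72.6, 75.6 and 84.6 CPM. Lss, which closes squalene epoxide into lanosterol, was lower in SmadNes in each pool, at 93.8 ± 3.78 against 91.2 ± 2.52 CPM. Dhcr7, the reductase of the last step, stood at 56.7 ± 2.41 and 56.7 ± 2.26 CPM. Nsdhl and Hsd17b7, which work with Msmo1 at the sterol ring, had 38.4 ± 1.85 and 39.3 ± 1.08 CPM, and 35.8 ± 1.65 and 36.1 ± 3.21 CPM. Fdft1, the squalene synthase, stood at 119.2 ± 14.4 and 117.9 ± 9.24 CPM, and Sc5d, a sterol desaturase, at 59.6 ± 1.07 and 60.8 ± 4.96 CPM. Tm7sf2 stood at 14.8 ± 0.589 and 14.7 ± 1.43 CPM and Ebp at 7.85 ± 0.351 and 8.07 ± 0.187 CPM.

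The regulators gave log2 differences between -0.05 and 0.03. Control and SmadNes libraries had Srebf2 at 342.9 ± 14.4 and 333.0 ± 30.6 CPM (SD, 3 libraries each), and Srebf1, the gene of SREBP1, at 83.6 ± 6.17 and 80.7 ± 8.56 CPM. Insig1, itself a sterol-responsive target, stood at 90.6 ± 14.3 and 89.0 ± 9.49 CPM. Stard4, which carries cholesterol between membranes, stood at 52.6 ± 2.55 and 53.6 ± 6.81 CPM. Of the fatty acid enzymes, Acaca, the carboxylase that makes malonyl-CoA, stood at 238.3 ± 16.7 and 248.4 ± 10.5 CPM. Fasn stood at 722.6 ± 35 and 724.6 ± 31.9 CPM, and Acly at 621.3 ± 75.6 and 625.4 ± 66.3 CPM. Elovl6, which lengthens palmitate, stood at 113.8 ± 11.9 and 114.3 ± 1.61 CPM. Scd2 was lower in SmadNes in each pool by at most 0.04 on the log2 scale, at 1607 ± 70.4 and 1585 ± 58.8 CPM.

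Across the 28 genes, Idi1, Cyp51, Msmo1 and Ebp were higher in SmadNes in all 3 pools, and Lss and Scd2 lower. The 4 higher genes of 28 are a share near the 13.8% of all genes tested, and the 2 lower ones a smaller share than the 14.3% of all genes. The median size of the difference between genotypes within a pool was 0.056 on the log2 scale. The largest, 0.303, was that of Scd1 in SF4, where SmadNes was the lower library, while SmadNes was the higher one in SF3 and SF5_6.

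The second comparison asks how these genes varied between the pools, each of which held a library of both genotypes. With genotype in the model, edgeR's test of the pool term called 10 of the 28 genes, against 28.8% of all 16869 genes and 33% of the 10435 tested at or above the mean level of Ebp, the gene with the lowest CPM. The members' share of 35.7% lay near both. Of the 10 genes, 5 were higher in SF5_6 than in the mean of SF3 and SF4 (Scd1, Idi1, Stard4, Hmgcs1 and Msmo1) and 5 were lower (Insig1, Acly, Fdft1, Srebf1 and Srebf2). The 28 genes thus did not differ in 1 direction, and their summed level stayed between 5421 and 5716 CPM in the 6 libraries.

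**Figure D3:**
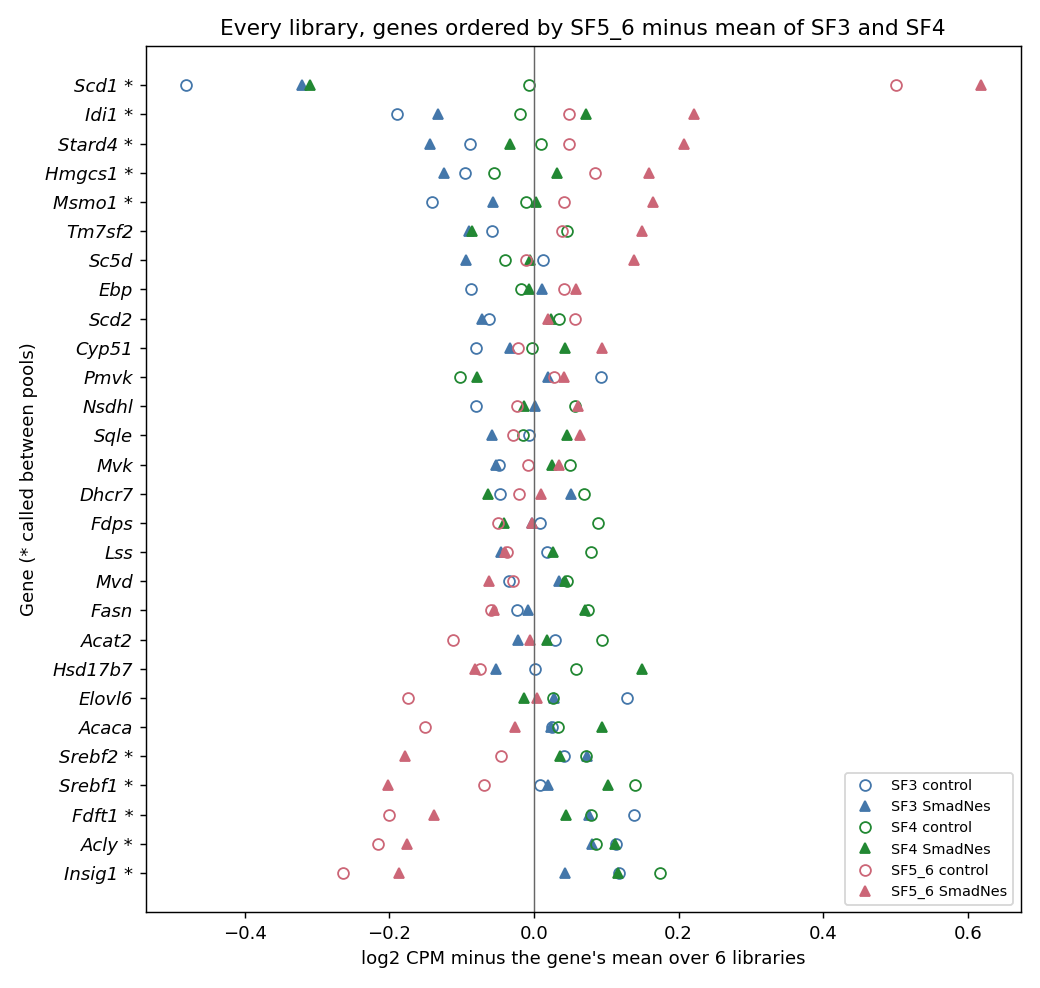
Log2 CPM of every library minus the gene's mean over the 6 libraries, with genes ordered by SF5_6 minus the mean of SF3 and SF4; circles are controls, triangles SmadNes, colours mark pools and stars the 10 genes called between pools. SF5_6 points lie left of the others for Insig1, Acly and Fdft1 at the bottom and right of them for Scd1 at the top.

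Insig1 (ENSMUSG00000045294.11, GRCm38 chromosome 5, 28071363 to 28078662) was the lowest in SF5_6 among the 28 relative to the other pools. It stood at 96.8, 100.7 and 74.3 CPM in control SF3, SF4 and SF5_6, and at 92.0, 96.7 and 78.4 CPM in SmadNes. Both SF5_6 libraries lay below the other 4. The log2 difference of SF5_6 from the mean of SF3 and SF4 was -0.34 (SE 0.046), with an adjusted p for the pool term of 0.00213. Acly (ENSMUSG00000020917.17, chromosome 11, 100476353 to 100528000) showed the same order, at 671, 659 and 534 CPM in controls and 656, 671 and 549 CPM in SmadNes. Its SF3 and SF4 libraries lay close together, and SF5_6 was lower by a log2 difference of -0.29 (SE 0.037, adjusted p 0.00143). Fdft1 (ENSMUSG00000021273.10, chromosome 14, 63145150 to 63179578) stood at 130, 124.7 and 102.8 CPM in controls and 124.5, 121.8 and 107.3 CPM in SmadNes, a log2 difference of -0.25 (SE 0.042, adjusted p 0.00564).

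Both SREBP genes were lower in SF5_6 as well, by less. Srebf1 (ENSMUSG00000020538.15, chromosome 11, 60199089 to 60222581) stood at 82.4, 90.3 and 78.1 CPM in control SF3, SF4 and SF5_6 and at 83.0, 87.9 and 71.2 CPM in SmadNes (log2 difference -0.20, SE 0.045, adjusted p 0.0151). Srebf2 (ENSMUSG00000022463.7, chromosome 15, 82147181 to 82205379) stood at 347, 355 and 327 CPM in controls and 355, 346 and 298 CPM in SmadNes (log2 difference -0.17, SE 0.042, adjusted p 0.0424). In both genes the SmadNes SF5_6 library was the lowest of all. Without that library the pool term of edgeR's test no longer passed, with adjusted p of 0.097 for Srebf1 and 0.505 for Srebf2, nor did it without SmadNes SF4 (0.0708 and 0.0971). Per length, Srebf1 made up 23.0% to 24.5% of the 2 SREBP genes' transcripts in every library.

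On the higher side, Scd1 (ENSMUSG00000037071.2, chromosome 19, 44394455 to 44407879) stood at 14.98, 20.8 and 29.6 CPM in control SF3, SF4 and SF5_6 and at 16.8, 16.9 and 32.1 CPM in SmadNes. Both SF5_6 libraries were above the other 4, 1.78-fold over the mean of SF3 and SF4 (log2 difference 0.83, SE 0.093, adjusted p 0.000687). Its neighbour Scd2, on the same chromosome at 44293674 to 44306864, stood at 1527, 1634 and 1659 CPM in controls and 1517, 1621 and 1616 CPM in SmadNes and was not called (adjusted p 0.145). Per length, Scd1 was 1.08% to 1.40% of the transcripts of both desaturases in SF3 and SF4, and 1.95% and 2.17% in SF5_6. Reads that fit both of these similar genes were shared by estimation, so the small level of Scd1 is less certain than that of Scd2. The spread of Scd1 over the 6 libraries was 33.2% of its mean, against 3.00% to 12.1% for the other 27 genes and a median of 10.5% over all genes tested. Over the 10435 genes at or above the mean level of Ebp that median was 6.53%, near the 5.53% over the 28 genes.

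Idi1 (ENSMUSG00000058258.14, chromosome 13, 8885501 to 8892451), whose values stand above, was lowest in SF3 and highest in SmadNes SF5_6, with control SF5_6 below SmadNes SF4. Its log2 difference was 0.19 for SF4 minus SF3 and 0.30 for SF5_6 minus SF3 (adjusted p of the pool term 0.00485). Hmgcs1 (ENSMUSG00000093930.2, chromosome 13, 119690379 to 119708260) had both SF5_6 libraries above the other 4, with a log2 difference of 0.18 from their mean (SE 0.039, adjusted p 0.0131). Msmo1 and Stard4 were called by a narrow margin (adjusted p 0.0367 and 0.0487), at log2 differences of 0.15 (SE 0.042) and 0.19 (SE 0.056). Stard4 stood at 49.8, 53.3 and 54.7 CPM in controls and 47.9, 51.7 and 61.1 CPM in SmadNes. Without SmadNes SF5_6, edgeR's adjusted p was 0.0673 for Hmgcs1, 0.22 for Msmo1 and 0.332 for Stard4. Leaving out control SF5_6 took Fdft1 to 0.0883 and Msmo1 to 0.0759. Msmo1 also missed the threshold without control SF3 (0.115), SmadNes SF3 (0.0965) or SmadNes SF4 (0.0561), and Stard4 did so without the same libraries (0.0561, 0.171 and 0.0812). With DESeq2 the adjusted p was 0.191 for Msmo1 and 0.175 for Stard4.

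The other 18 genes were not called between pools, with adjusted p from 0.0708 to 0.988 and log2 differences of SF5_6 from the mean of SF3 and SF4 between -0.13 and 0.14. Some of these passed in edgeR's test under other settings: Acaca, Fasn and Elovl6 without the filter on low counts (0.00871, 0.011 and 0.039), Acaca without SmadNes SF3 (0.0372), Elovl6 without SmadNes SF5_6 (0.0119), and Acaca and Fasn without the SF3 pair (0.0273 and 0.0384). Acaca came nearest, at 247, 249 and 219 CPM in controls and 247, 260 and 239 CPM in SmadNes, followed by Fasn (adjusted p 0.0841). Sqle ranged only from 147 to 160 CPM and Dhcr7 from 54.2 to 59.4 CPM. Counted by libraries, 8 of the 28 genes had both SF5_6 libraries below the other 4, against 24.8% of all genes tested, and 5 had both above, against 23.2%. These shares too lay near the background. By step, the pool term called 2 of 7 genes up to farnesyl pyrophosphate, 2 of 11 of the squalene and sterol part, 4 of 4 regulators and transport genes, and 2 of 6 fatty acid enzymes. The share over all genes for this test was 28.8%, and the lists are too small to set apart from it.

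Markers of cell types also differed between the pools, and their part in the results on sterol genes was not tested. The 4 intermediate progenitor markers summed to 1253 to 1360 CPM in SF3 and SF4 and to 816 and 873 CPM in SF5_6. The pool term called 3 of the 4, and all 4 had both SF5_6 libraries below the rest, as did 8 of the 28 sterol and fatty acid genes and 24.8% of all genes. The 7 neuron markers summed to 3952 to 4699 CPM in SF3 and SF4 and to 3478 and 3501 CPM in SF5_6. Of these 7, 4 were called and lower in SF5_6 than in the mean of SF3 and SF4, and 1 was called and higher. The 9 radial glia markers summed to 1616 and 1714 CPM in SF3, 1821 and 1874 in SF4, and 1983 and 2039 in SF5_6. Of the 9, 6 were called and higher in SF5_6 than in the mean of SF3 and SF4. Pax6 was called and lower than that mean, but its pool means were 131.4, 148.6 and 133.2 CPM in SF3, SF4 and SF5_6. Single radial glia markers did not all follow the order of their sums, SF3 below SF4 below SF5_6: Pax6, Fabp7 and Slc1a3 did not. This order is also that of the pool means of Scd1, Idi1, Stard4, Hmgcs1 and Msmo1, the genes called and higher in SF5_6. It is likewise the order of genes not called between pools, such as Sqle, Cyp51, Ebp, Tm7sf2, Sc5d and Scd2. How many of all genes have this order was not counted, and a link was not tested.

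Markers of cells other than cortical ones were higher in SF5_6 for some types. Mesenchymal markers (5 of 5 called) summed to 590 and 825 CPM in SF3, 245 and 404 in SF4, and 973 and 1225 in SF5_6. Erythroid markers (4 of 4 tested called) summed to 211 and 220 CPM, 64.5 and 66.6 CPM, and 459 and 787 CPM in the same order. Most of the SF5_6 sums was Hbb-y, at 293 and 475 CPM. Hbb-bt had pool means of 30.6, 10.6 and 25.6 CPM in SF3, SF4 and SF5_6, so it was highest in SF3. Ventral telencephalon markers (4 of 5 called) summed to 22.8 and 66.9 CPM in SF3, 19.9 and 29.5 in SF4, and 118 and 156 in SF5_6. Microglial markers were highest in SF3, at 59.3 and 62.9 CPM, against 7.46 and 9.03 in SF4 and 45.2 and 45.4 in SF5_6. Endothelial markers summed to 15.8 to 20.4 CPM. Of 3 tested, 2 were called and higher in SF5_6 than in the mean of SF3 and SF4. Among these, Cdh5 had pool means of 3.27, 1.17 and 3.06 CPM in SF3, SF4 and SF5_6, so it was highest in SF3. Oligodendrocyte lineage markers summed to 28.8 to 41.8 CPM, with 1 of 3 tested called and higher in SF5_6. No marker list was at 0 in any library. Between genotypes none of these markers was called with or without the block, and the ranges of the sums overlapped for every list. Within pools, the ventral telencephalon sum was lower in SmadNes in all 3 (66.9 and 22.8, 29.5 and 19.9, and 156 and 118 CPM in control and SmadNes SF3, SF4 and SF5_6). Of its 5 genes, 4 were lower in all 3 pools and had an unadjusted p below 0.05 with the block in edgeR's test. The radial glia sum was higher in SmadNes in all 3 pools (1616 and 1714, 1821 and 1874, and 1983 and 2039 CPM in the same order). Of its 9 genes, 1, Prom1, was higher in all 3 pools, and Nes and Hes1 had an unadjusted p below 0.05 in that test. Insm1, Tubb3 and Hbb-bt were also lower in SmadNes in all 3 pools, with unadjusted p of 0.01, 0.03 and 0.000519 in that test. The part of these differences in the genotype values of sterol and fatty acid genes was not tested.

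**Figure D4:**
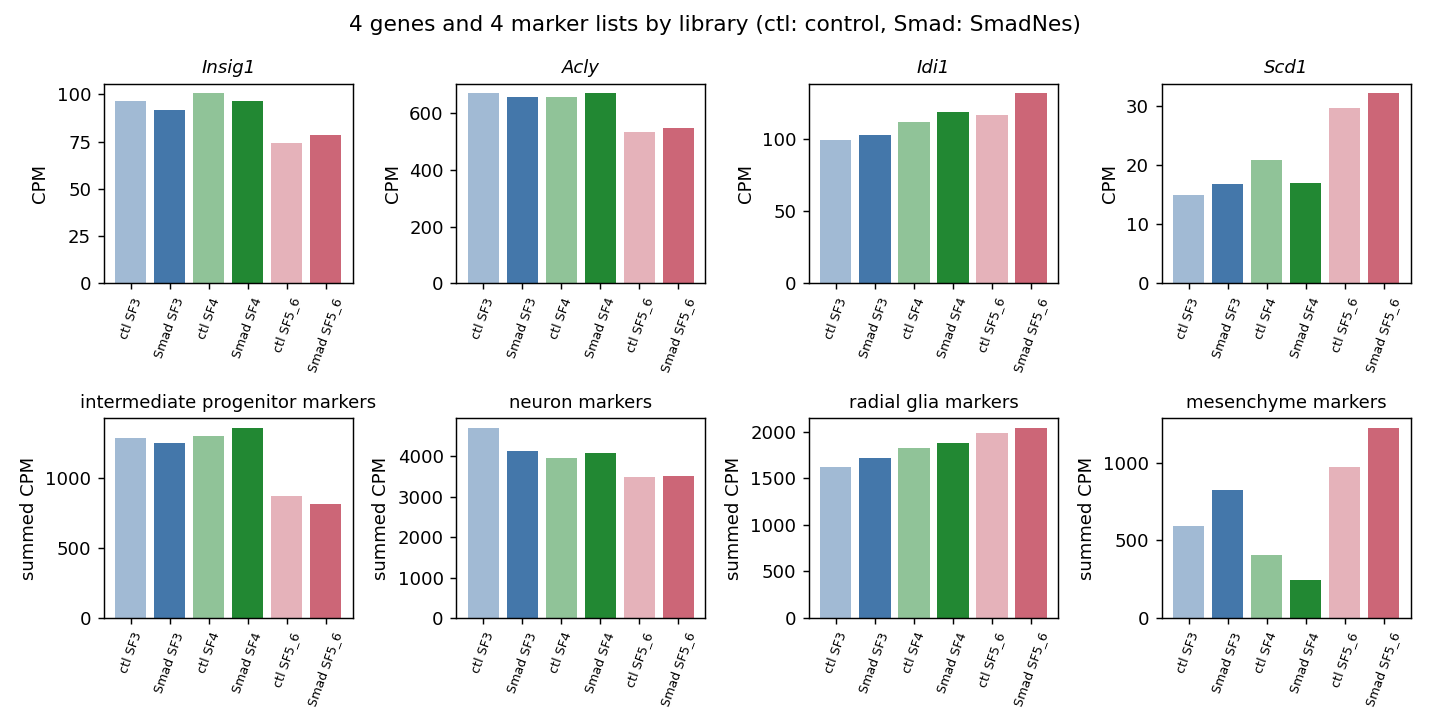
Level in CPM by library of Insig1, Acly, Idi1 and Scd1 (top row) and summed CPM of 4 marker lists (bottom row); pale bars are controls, full bars SmadNes, colours mark pools, and every axis starts at 0. Insig1, Acly and the intermediate progenitor sum are lowest in SF5_6, while Scd1 and the mesenchyme sum are highest there.

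Genes around the pathway were looked at in the same way. Of 39 related genes 37 were tested. Between genotypes edgeR called 0 with or without the block, with a median log2 difference of -0.001, and 0 and 1 of them lay below an unadjusted p of 0.05 without and with it. The pool term called 10 of the 37, or 27%, against 28.8% of all genes. Idi2, a second isopentenyl isomerase, had 0 counts in every library, which allows at most 0.0909 CPM, and Scd3 had 1 to 9 counts. Of the 8 genes that hold or cut SREBP, the pool term called 2. Mbtps2, the protease that makes the second cut, stood at 51.5 and 52.3 CPM in SF5_6 and 60.6 to 63.2 elsewhere (log2 difference -0.25, SE 0.043, adjusted p 0.00787). Erlin2, which helps degrade sterol-sensing proteins, was higher, at 93.8 and 94.7 CPM against 80.6 to 85.4. Mbtps1, the protease that makes the first cut, stood at 170 to 182 CPM and was not called.

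Of the 7 other isoprenoid enzymes tested, 1 was called. Lbr, whose protein shares the sterol C14 reductase step with Tm7sf2, was higher in SF5_6 at 98.9 and 103.8 CPM, against 76.7 to 92.7 in the other pools (log2 difference 0.25, SE 0.047, adjusted p 0.00525). Nus1, a subunit of the enzyme that makes dolichol chains, stood at 62.9 to 70.1 CPM. Of 14 other fatty acid enzymes, 3 were called. Fads1, a desaturase of long unsaturated chains, was lower in SF5_6 at 192 and 193 CPM, against 202 to 222. Acsl3, which activates fatty acids with CoA, was higher at 70.1 and 72.7 CPM, against 59.1 to 66.0. Scd4 had 0.206 and 0.375 CPM in SF5_6 and 0.521 to 1.15 CPM elsewhere. Tecr, a reductase of chain lengthening, stood at 112 to 134 CPM and was not called.

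Sterol sensing, export and storage genes had 4 of 8 called between pools. Like the other related lists, this one is small, and its count stands beside the 28.8% of all genes called. Nr1h2, the gene of the oxysterol receptor LXR beta, was lower in SF5_6 at 44.8 and 40.0 CPM, against 48.4 to 51.0 (adjusted p 0.0276). Mylip, an LXR target whose protein degrades lipoprotein receptors, was higher at 4.41 and 5.86 CPM, against 1.46 to 3.31 (adjusted p 0.00381). Abca1, which exports cholesterol, was highest in SF3 at 60.8 and 59.7 CPM and lay between 43.4 and 54.2 elsewhere (adjusted p 0.0498). Npc2, which hands cholesterol out of lysosomes, stood at 102.1 and 102.3 CPM in SF5_6 and 114 to 116 CPM elsewhere (adjusted p 0.0211). Osbp, an oxysterol-binding protein, stood at 83.1 to 91.1 CPM and was not called.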

How the data were processed

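Per the labels' protocols, the authors mapped paired-end reads of stranded mRNA libraries to GRCm38 with STAR 2.5.3a and estimated isoforms with RSEM 1.3.0 on GENCODE M15. DESeq2 1.18 appears in the submitters' processing notes. The deposited values are expected counts per gene, whole numbers with no scaling between libraries, and no source used here says how they became whole. No further rounding was needed.

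Counts were tested with edgeR 4.0.16 in R 4.3.3 (TMM scaling, filterByExpr, quasi-likelihood F test, Benjamini-Hochberg over 16869 genes, called below 0.05). The genotype fit had genotype as its term, and the pool test had genotype and pool name. CPM are TMM-scaled. TPM used exon lengths from GENCODE M21, found for 52489 of 52636 genes. Intervals are 95% intervals of the fit. Limits from a count of 0 use 3 counts and cover counting error only.

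The pool names pair the libraries: deviations from the group mean correlated at 0.451, 0.665 and 0.685 within SF3, SF4 and SF5_6. Between different names the values were at or below -0.085. Taking deviations from the group mean forces such values down when those within a name are positive, so they are no separate evidence of pairing. No 2 libraries of a genotype agreed within sampling noise (chi-square per degree of freedom 10.6 or more). P-values of the fit with genotype alone measure the spread between pools, which may be partly technical. In the block fit and the pool test they measure how far the genotype difference varied between pools. There the control and SmadNes libraries of a pool name stood as its replicates, so pool p-values do not measure the spread between pools. Alternatives used DESeq2 1.42.0, limma 3.58.1, RLE scaling, no filter, and left-out libraries. Members and lists were chosen with earlier results of these data known. The rule named all 28 members, the 2 most abundant genes of each related list and any called gene of it, except an item that is not reported here. Promoter windows are from RefSeq, GRCm38.p6.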

Additional observations from a re-analysis of the deposited data

How the results depend on the processing

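No member was called between genotypes under any alternative, with adjusted p of at least 0.681, and the median of the members stayed between -0.0125 and 0.0323 on the log2 scale. Signs changed in 72 of 448 values of single members. In none of these did both values exceed their SE, where DESeq2 values were set against the SE of the main edgeR fit. Over all genes, the number called between genotypes was 0 in the fit without a block, 4 with the replicate block, 7 with DESeq2 and 1 with limma-voom. With DESeq2 or limma-voom and the block, both chosen after seeing the data, it was 13 and 8. With the block and the SF3, SF4 or SF5_6 pair left out it was 10, 48 and 149. Without the block 177 genes lay below an unadjusted p of 0.05.

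Between pools, 10 members were called, and 6 to 10 when 1 library was left out, with 6 without SmadNes SF4 or SmadNes SF5_6. Over all genes 4864 were called, and 3161 with DESeq2; without the filter on low counts 13 members were. Without the SF5_6 pair, which leaves SF3 against SF4, 1250 genes and 1 member, Idi1 (adjusted p 0.0313), were called. Insig1, Acly and Scd1 passed in every other alternative run, and Idi1 did so except without the SF3 pair (0.135). With 3 pools, only differences well above the spread that each test measures could be called.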
